A study of Homo sapiens with 4 samples.

Results

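The 39 coding HOX genes of the human genome were measured in 4 libraries of total RNA from OVCAR3, a long-established line grown from a human high-grade serous carcinoma of the ovary. They are the rows whose gene symbol is HOXA, HOXB, HOXC or HOXD followed by a number, 39 of 62696 gene rows. HOX genes encode homeodomain transcription factors that give cells their position along the head-to-tail axis of the embryo and along the limbs and genital tract. They lie in 4 clusters, HOXA to HOXD, in which all genes read in one direction and low paralog numbers mark the front of the body and high numbers the rear. Genes of the same number in different clusters are paralogs that arose from one ancestral gene. In the Müllerian ducts, from which the oviduct, uterus and upper vagina form, HOXA9, HOXA10, HOXA11 and HOXA13 mark successive segments, and many adult cells keep part of their HOX pattern.

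The knockdown cells (KD) carried a short hairpin RNA against ANAPC1P2, a pseudogene of the anaphase-promoting complex subunit gene ANAPC1, and were sequenced as 3 libraries, KD 1, 2 and 3. The wild-type cells (WT) were unmodified OVCAR3 cells, sequenced as 1 library. Both were cultured in RPMI medium with fetal bovine serum. The labels name no library with a non-targeting hairpin, so effects of carrying a hairpin and of targeting ANAPC1P2 cannot be told apart. They do not say whether the KD libraries came from separate cultures, so the p-values reflect variation among these libraries only, and that variation may be technical. The lone WT library was assumed to vary like the KD libraries, and an exact permutation test of 3 libraries against 1 cannot give a two-sided p below 0.5.

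Counted reads numbered 42871815 to 56216398 in the KD libraries and 27868718 in WT. The targeted transcript was rare. The ANAPC1P2 row annotated as an unprocessed pseudogene had 0 reads in every library. The ANAPC1P2 row annotated as a processed transcript had 0, 11 and 8 reads in KD 1, 2 and 3, against 14 in WT. Both were too low to be tested. Of 16 ovarian carcinoma markers, 10 were higher and 4 lower in KD, with a median log2 difference of 0.79. Among all protein-coding genes tested, 45.9% were higher and 24.7% lower, with a median of 0.28. All 16 markers had reads in every library, among them PAX8 (18322 to 21361 normalized counts in KD, 62685 in WT). Their summed level was 130624 to 144516 normalized counts in KD and 575798 in WT, where MUC16, which encodes the antigen CA-125, had 24678 to 35345 in KD and 458889.8 in WT. The library labelled wild type also held transcripts of other cell types. The summed level of 11 erythroid markers was 9.48 to 28.8 normalized counts in KD and 14890 in WT, with HBB, HBA1, HBA2, HBD, HBG1, SLC4A1 and AHSP at 0 in KD. The 13 leukocyte markers summed to 4186 to 4695 in KD and 8172 in WT, with CD3D, MS4A1, CD68, LYZ and FCGR3B at 0 in KD. Of 14 neural markers, which summed to 5713 to 6484 in KD and 6388 in WT, NEUROD6 and MOG were among those at 0 in KD. The 12 fibroblast markers summed to 2876 to 3700 in KD and 3837 in WT, with COL3A1 at 0 in KD. Endothelial markers (9 genes) summed to 254 to 350.2 in KD and 502 in WT, and mesothelial markers (7 genes) to 6981 to 7922 in KD and 8690.1 in WT. The part of other cell types in the HOX values below was not tested. In bulk RNA, fewer cells of a type and less RNA per cell cannot be told apart.

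The HOX genes differed between KD and WT gene by gene and not as a block. Values are normalized read counts, which are whole reads divided by a factor for each library. Of the 39 genes, 26 averaged 10 or more normalized counts across all 4 libraries and were tested with limma on log2(normalized count + 1), with Benjamini-Hochberg adjustment over all 23344 genes tested and a threshold of 0.05. The other 13 were too low. HOXB6, HOXC6 and HOXD9 had KD means under 10 and HOXD1 a WT value under 10, so these 4 passed through their higher group alone. HOXA5, HOXA9, HOXA13, HOXB7, HOXD8 and HOXD13 were higher in KD, HOXA2, HOXB3, HOXB4, HOXC6, HOXD9 and HOXD10 were lower, and 14 were not called. The 12 called genes were 46.2% of the tested HOX genes, against 67.7% called among all genes tested (31.4% higher and 36.3% lower) and 70.6% among protein-coding genes. Of the 19 tested HOX genes with a mean under 300, 7 were called (36.8%), against 59.0% of all genes in that range (9.20% higher and 49.8% lower). The median log2 difference was -0.003 over the tested HOX genes, -0.28 over all genes and 0.28 over protein-coding genes. All 3 KD libraries lay above WT for 12 HOX genes and below it for 12, together 92.3%, the same share as over all genes (92.3%, of which 40.0% above and 52.2% below). edgeR called 8 HOX genes higher and 6 lower, against 34.2% and 36.5% of all genes (70.6% in all), and DESeq2 6 and 4, against 33.6% and 25.8% (59.3% in all).

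**Figure D1:**
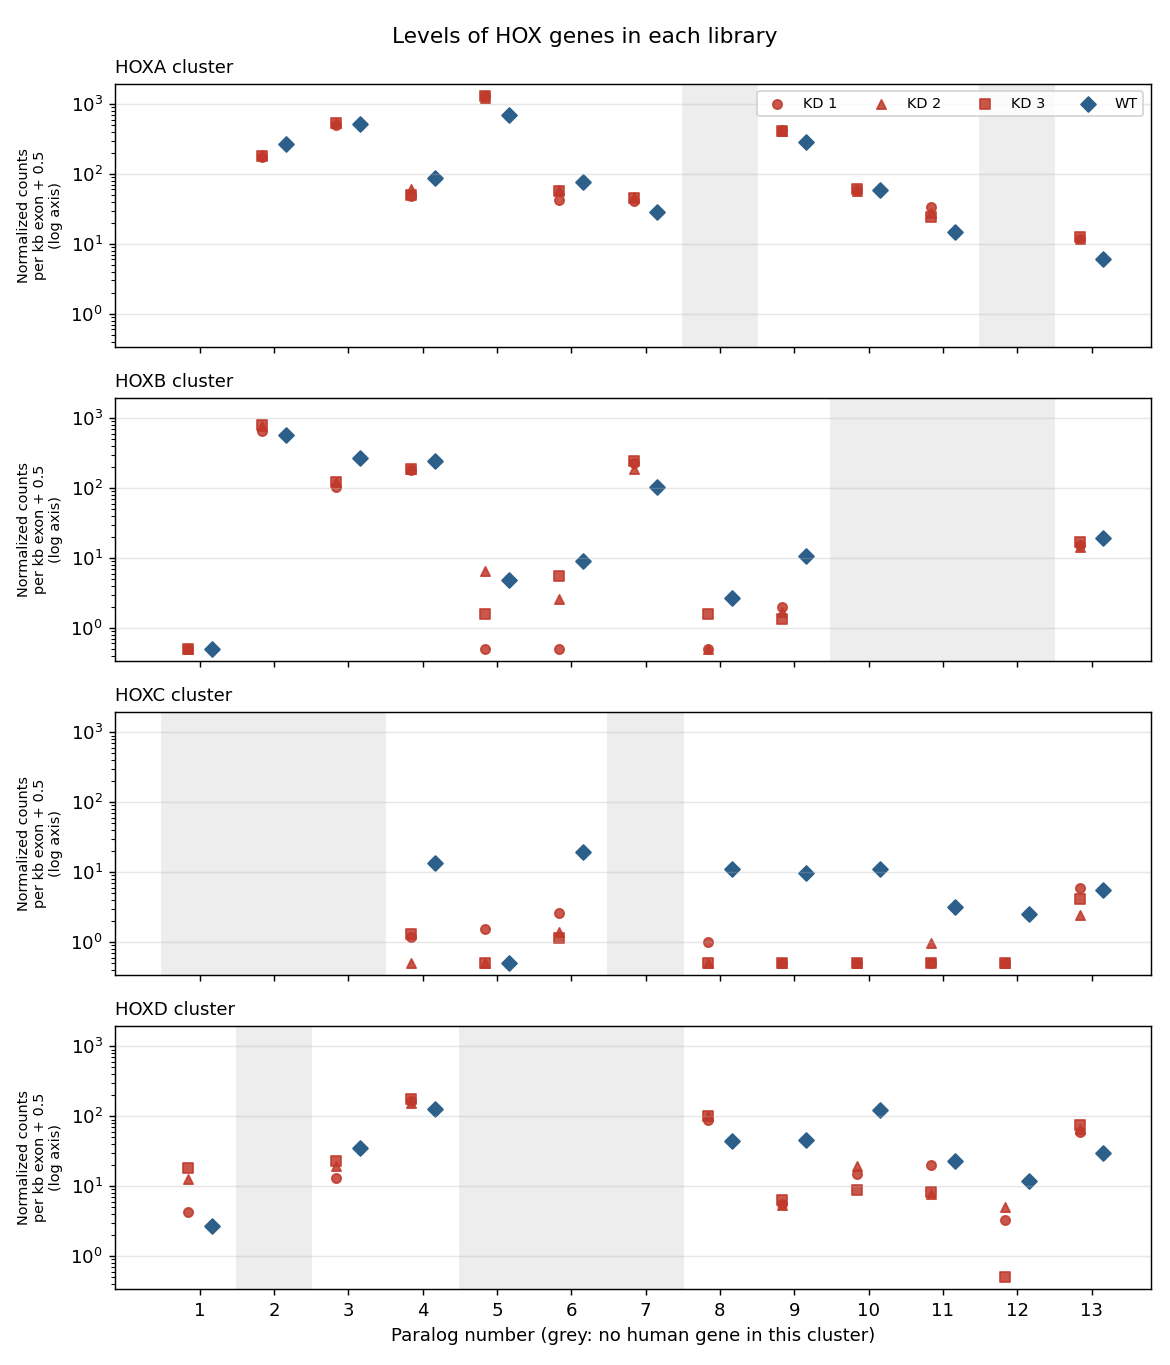
Levels of HOX genes in each library, as normalized counts per kilobase of exon plus 0.5 on a log axis, by cluster (panels) and paralog number (horizontal axis), with the 3 KD libraries in red on the left of each pair and WT in blue on the right. HOXA5 was the highest gene in all 4 libraries, and HOXC4 to HOXC12 lay at or near the bottom of the axis in KD.

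Per kilobase of exon, the scale on which levels of different genes can be compared, HOXA5 was highest in both groups with 1283 ± 52.7 normalized counts per kb in KD (SD, n = 3) and 691 in WT. HOXB2 followed with 738 ± 82.7 per kb in KD and 571 in WT, then HOXA3 with 521 ± 21.4 and 526, and HOXA9 with 418 ± 11.9 and 285. These 4 genes kept their order in both groups. Below them the order changed: HOXB7 ranked 5 in KD and 10 in WT, HOXB3 ranked 9 in KD and 5 in WT, and HOXD10 ranked 20 in KD and 9 in WT. Among the 15 tested HOX genes with a mean of at least 100, the coefficient of variation between KD libraries had a median of 7.45%, against 7.60% over all such genes.

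The scaling of the libraries moved every difference. Scaling to equal library totals lowered the median log2 difference of all genes by 0.56 relative to the deposited scaling, TMM raised it by 0.10 and a median-of-ratios factor raised it by 0.28. The calls among HOX genes were 3 higher and 11 lower with equal totals, 10 and 5 with TMM, and 12 and 4 with median-of-ratios factors. Over the deposited scaling and 14 alternatives, 6 of the 12 calls held wherever the gene was tested: HOXA5, HOXB7 and HOXD8 higher, and HOXB3, HOXD9 and HOXD10 lower. HOXD9 was tested under 13 of the alternatives and passed the filter through its WT value alone. Ratios between genes of one library do not depend on its factor and are given below where the results turn on them. Every pair given holds a called gene, so a difference in its ratio follows in part from that choice and is no separate test.

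**Figure D2:**
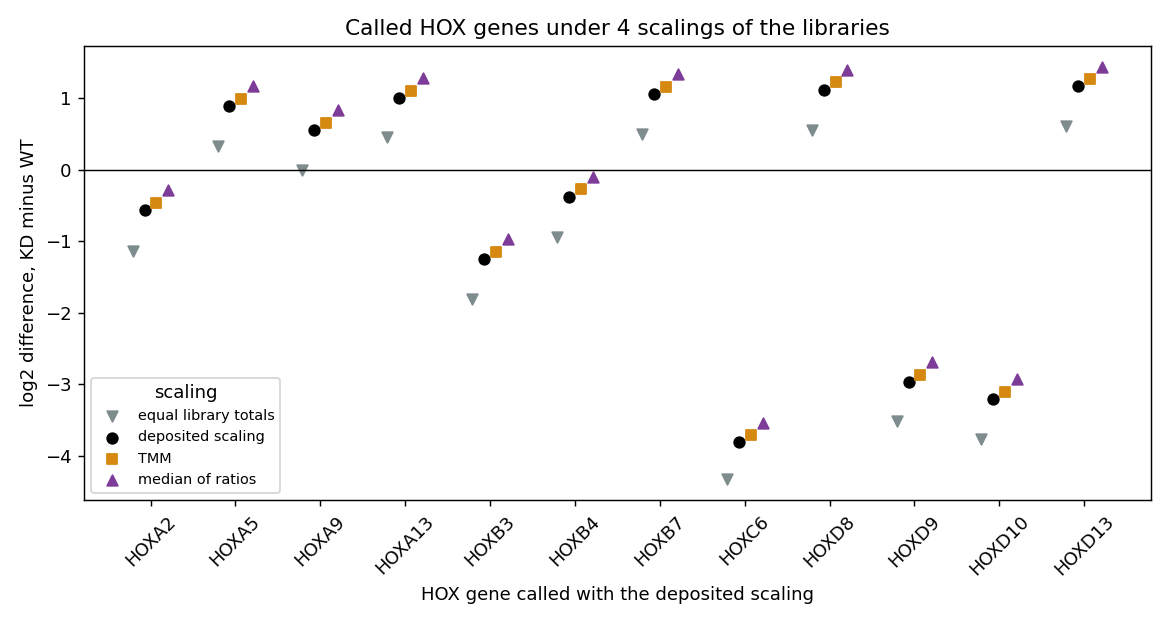
Log2 difference, KD minus WT, of the 12 called HOX genes under 4 scalings of the libraries (symbols). HOXA9 lay at -0.012 with equal library totals, while HOXA5, HOXB7 and HOXD8 stayed above 0 and HOXB3, HOXC6, HOXD9 and HOXD10 below 0 under all 4.

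In the HOXD cluster (chr2:176092891-176190907, GRCh38, plus strand), genes called higher and lower stood side by side. HOXD13 and HOXD8 were higher in KD, and HOXD10 and HOXD9, which lie between them, were lower. HOXD13 (chr2:176092891-176095938), which patterns the digits and the genital tubercle, had 133, 148 and 166 normalized counts in KD 1, 2 and 3, against 65.5 in WT. It was 2.27-fold higher in KD, with a log2 difference of 1.16 (SE 0.25, adjusted p = 0.00735). With equal library totals the difference was 0.61 and the call was lost (adjusted p = 0.0667). HOXD8 (chr2:176129694-176132695), a gene of the cluster's middle, had 233, 262 and 269 in KD, against 117 in WT (log2 difference 1.12, SE 0.19, adjusted p = 0.00289). For both genes every KD library lay above WT.

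HOXD10 (chr2:176108790-176119942), which takes part in hindlimb motor neuron patterning in mice, had 38.9, 51.3 and 22.2 normalized counts in KD, against 334 in WT. It was 8.92-fold lower, with a log2 difference of -3.20 (SE 0.50, adjusted p = 0.00178). HOXD9 (chr2:176122720-176124937) had 9.48, 9.32 and 11.1 in KD, against 84.4 in WT, 8.46-fold lower, with a log2 difference of -2.96 (SE 0.51, adjusted p = 0.00272). The KD mean of HOXD9 was 9.97, so this gene passed the filter through its WT value alone. For both HOXD10 and HOXD9 the highest KD library was far below WT. The ratio of HOXD10 to HOXD13 within a library was 0.293, 0.347 and 0.134 in KD and 5.10 in WT, so the order of these genes was opposite in the groups. The ratio of HOXD9 to HOXD8 was 0.0407, 0.0356 and 0.0413 in KD and 0.724 in WT.

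The remaining HOXD genes were not called. HOXD11 had 41.7, 15.5 and 16.7 normalized counts in KD and 47.8 in WT (log2 difference -1.07, SE 0.66, adjusted p = 0.184), and 21.4% of its exonic bases are also exon of a neighbouring gene on the same strand. HOXD12 had 12 reads in KD and 14 in WT, or 23.8% of the WT level (exact 95% interval of the ratio of reads 10.1 to 55.5%). Of the 37 HOX values of 2 to 20 reads, 91.9% were even, as when both mates of a pair are counted, and such intervals are then too narrow. Counted as pairs, the interval was 6.61 to 82.7%. HOXD4, a hindbrain gene, had 245, 223 and 257 in KD and 185 in WT (0.38, SE 0.19, adjusted p = 0.114). HOXD3 had 45.5, 68.4 and 78.9 in KD and 126 in WT (-0.99, SE 0.39, adjusted p = 0.0596), and 80.5% of the exonic bases of HOXD4 and 62.2% of those of HOXD3 are shared with same-strand genes. HOXD1, which acts in pain-sensing neurons in mice, shares 58.1% of its exonic bases with genes on the other strand, among them HAGLR. It had 7.58, 24.1 and 35.6 in KD and 4.44 in WT (1.87, SE 0.88, adjusted p = 0.0999). Its KD values were spread widely, and without KD 1 it was called, with a difference of 2.48 (adjusted p = 0.020).

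The promoters of 3 HOXD genes are shown because they start genes of one cluster that differed in opposite directions. Each is 300 bases of RefSeq sequence on GRCh38.p14, plus strand, from 250 bases before to 50 after the start site. They are chr2:176092471-176092770 for HOXD13, chr2:176116528-176116827 for HOXD10 and chr2:176129455-176129754 for HOXD8. Capitals mark matches on either strand to TATAAA (the TATA box), CCAAT (the CCAAT box), TGATNNAT (a HOX and PBX pair site) and TAATTA (a homeodomain core).
HOXD13: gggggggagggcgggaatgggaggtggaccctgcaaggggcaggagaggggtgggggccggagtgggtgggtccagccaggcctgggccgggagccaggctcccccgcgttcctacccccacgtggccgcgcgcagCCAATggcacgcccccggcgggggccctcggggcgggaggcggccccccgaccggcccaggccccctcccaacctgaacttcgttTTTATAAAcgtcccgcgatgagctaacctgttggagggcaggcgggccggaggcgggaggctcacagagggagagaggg
HOXD10: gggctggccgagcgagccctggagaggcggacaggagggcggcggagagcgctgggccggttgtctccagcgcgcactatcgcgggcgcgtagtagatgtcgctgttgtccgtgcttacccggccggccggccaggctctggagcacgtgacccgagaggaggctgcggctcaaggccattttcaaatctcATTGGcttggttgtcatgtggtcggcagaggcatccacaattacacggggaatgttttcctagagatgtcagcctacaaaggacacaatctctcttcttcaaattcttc
HOXD8: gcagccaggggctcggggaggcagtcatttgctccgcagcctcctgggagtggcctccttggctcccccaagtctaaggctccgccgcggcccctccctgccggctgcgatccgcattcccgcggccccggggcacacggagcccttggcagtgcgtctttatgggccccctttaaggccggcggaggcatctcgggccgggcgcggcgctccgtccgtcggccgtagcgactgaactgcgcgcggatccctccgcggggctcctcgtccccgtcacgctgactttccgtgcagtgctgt
HOXD13 held overlapping TATAAA matches on both strands at -29 and -27, counted from the start site as base 1, and a CCAAT at -114, and HOXD10 held a CCAAT on the minus strand at -59. HOXD8 held none of the 4 motifs. TATAAA occurred in 11.5% of 35116 promoters in the table and in 5 of the 27 entries for 20 HOX genes. CCAAT occurred in 34.6% of all promoters and in 18 of 27 HOX entries. CG dinucleotides numbered 24 in HOXD13, 23 in HOXD10 and 34 in HOXD8, against a median of 14 over all promoters. A match is a description of letters and not evidence of a bound factor.

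**Figure D3:**
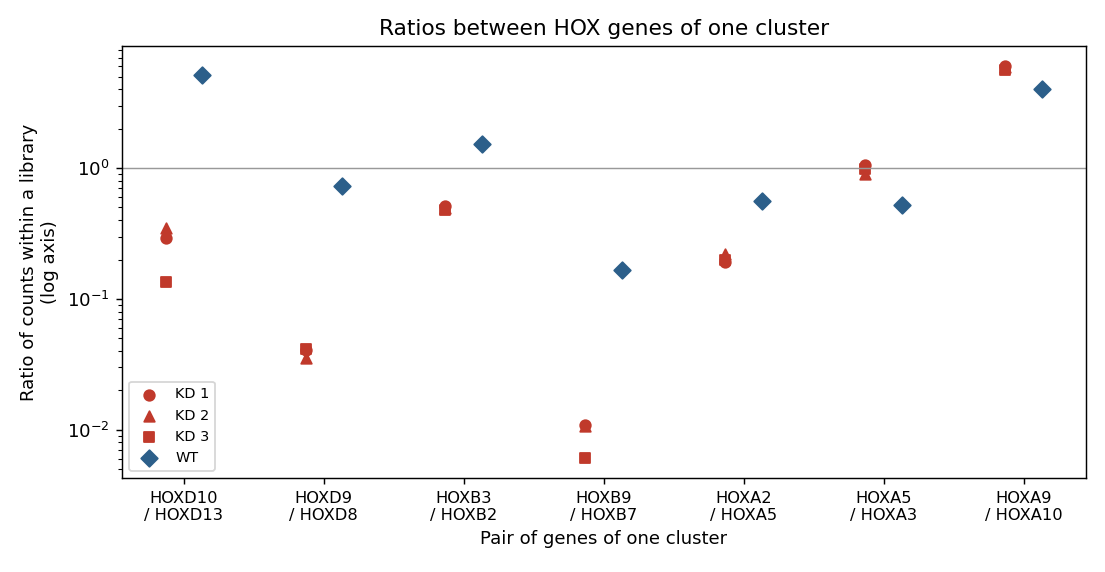
Ratio of normalized counts between pairs of HOX genes of one cluster within each library, on a log axis, with KD in red on the left of each pair and WT in blue on the right. HOXD10 / HOXD13 was 0.134 to 0.347 in KD and 5.10 in WT, and HOXA9 / HOXA10 was 5.65 to 6.07 in KD and 4.03 in WT.

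The HOXC cluster (chr12:53938765-54056030, plus strand) was almost silent in KD and low in WT. Summed per kilobase, its 9 genes had 9.87, 3.28 and 5.11 normalized counts per kb in KD and 72.0 in WT, 11.8-fold lower in KD. It gave 0.230, 0.0748 and 0.112% of the summed HOX level in KD and 1.87% in WT. HOXC6 (chr12:53990624-54030823), a trunk-level gene, was its only tested member, with 7.58, 3.11 and 2.22 normalized counts in KD and 66.6 in WT. It was 15.5-fold lower, with a log2 difference of -3.80 (SE 0.77, adjusted p = 0.00546). HOXC6 passed the filter through its WT value alone, while HOXC4, HOXC8, HOXC9 and HOXC10 did not pass, so its test is no measure of the cluster. The call was lost without a filter on low genes (adjusted p = 0.0547).

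The other HOXC genes had too few reads for a test. HOXC9 had 0 reads in KD and 14 in WT, 16.8-fold lower with KD set to a floor of 3 reads over the 3 KD libraries. HOXC10 had 0 reads in KD and 22 in WT (26.4-fold lower at that floor), and HOXC12 had 0 and 6 (7.20-fold lower). The floor takes the WT count as exact. By the exact 95% interval, HOXC9 was at least 11.9-fold lower, HOXC10 19.7-fold and HOXC12 4.24-fold. Counted as pairs, these limits were 5.19, 9.04 and 1.49-fold. These genes pattern the rear trunk and hindlimb. They are 3 of the 35 HOX genes with at least 6 reads in WT, or 8.57%, where 3.27% of all such genes had no read in KD. Genes entered these shares through WT reads alone, at a cutoff equal to the WT count of HOXC12. The genes were not matched for WT level, so the shares are a description and not a test. HOXC4 had 4 reads in KD and 32 in WT, HOXC8 had 1 and 18, HOXC11 had 2 and 8, and HOXC5 had 2 and 0. Together the 8 genes HOXC4 to HOXC12, grouped after their values were seen, had 13, 6 and 4 reads in KD 1, 2 and 3 and 160 in WT, which is 3.99% of the WT level (exact 95% interval 2.46 to 6.20%, and 2.07 to 7.69% counted as pairs). KD 1 held most of these reads: the mean normalized sum was 4.02% of WT with all 3 KD libraries and 2.56% without KD 1.

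HOXC13, the last gene of the cluster and a regulator of hair keratins, did not follow them. It had 13.3, 4.66 and 8.89 normalized counts in KD and 12.2 in WT, and its reads were 70.7% of the WT level, with an exact 95% interval of 34.1 to 157% that includes no difference. The HOXC values rest on few reads of the library that also held the erythroid and leukocyte transcripts given above.

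The coding sequences of the homeobox, the 180 bases that encode the DNA-binding homeodomain, are shown for HOXC6 and HOXD13, the called genes with the lowest and the highest log2 difference, and for same-number paralogs other than HOXA6. They were read from GENCODE 29 transcripts on GRCh38, each lies in a single exon, and capitals mark the 18 bases that encode the conserved stretch of the recognition helix. HOXC6 lies at chr12:54029675-54029854 (plus strand) and HOXB6 at chr17:48596473-48596652 (minus).
HOXC6: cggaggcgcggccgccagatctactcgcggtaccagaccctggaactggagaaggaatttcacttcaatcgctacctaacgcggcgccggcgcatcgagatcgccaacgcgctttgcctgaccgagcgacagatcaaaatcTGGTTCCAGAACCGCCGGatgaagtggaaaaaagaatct
HOXB6: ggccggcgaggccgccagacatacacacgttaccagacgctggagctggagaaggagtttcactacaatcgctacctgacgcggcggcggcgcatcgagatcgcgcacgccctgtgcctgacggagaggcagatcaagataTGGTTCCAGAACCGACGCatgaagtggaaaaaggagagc
HOXD13 lies at chr2:176094524-176094703 (plus strand), HOXA13 at chr7:27198222-27198401 (minus), HOXB13 at chr17:48726820-48726999 (minus) and HOXC13 at chr12:53945041-53945220 (plus).
HOXD13: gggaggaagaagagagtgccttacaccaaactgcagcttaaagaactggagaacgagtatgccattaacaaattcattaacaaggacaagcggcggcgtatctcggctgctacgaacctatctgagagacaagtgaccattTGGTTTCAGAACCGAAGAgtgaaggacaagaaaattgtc
HOXA13: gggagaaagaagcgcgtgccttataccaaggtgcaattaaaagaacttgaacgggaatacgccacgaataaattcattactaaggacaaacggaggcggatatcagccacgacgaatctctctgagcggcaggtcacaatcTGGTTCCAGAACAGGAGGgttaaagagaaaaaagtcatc
HOXB13: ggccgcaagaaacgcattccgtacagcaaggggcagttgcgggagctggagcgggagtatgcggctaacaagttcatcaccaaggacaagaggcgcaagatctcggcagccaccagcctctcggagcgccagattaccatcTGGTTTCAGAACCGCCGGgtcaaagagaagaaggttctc
HOXC13: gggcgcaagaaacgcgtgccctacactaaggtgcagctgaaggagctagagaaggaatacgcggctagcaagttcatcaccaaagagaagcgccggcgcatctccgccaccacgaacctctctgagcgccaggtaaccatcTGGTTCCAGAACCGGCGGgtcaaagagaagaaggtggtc
HOXC6 shared 82.8% of these bases with HOXB6 and 86.7% with HOXA6, which is not shown. HOXD13 shared 73.3% with HOXA13, 70.0% with HOXB13 and 73.9% with HOXC13. Over the 42 pairs of the same number, identity ran from 69.4 to 90.6% with a median of 81.7%, against a median of 60.6% over the 699 other pairs. No pair was identical. The sources used here do not say how reads that match several genes were counted.

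In the HOXB cluster (chr17:48528526-48729178, minus strand), HOXB7 was higher in KD, and HOXB3 and HOXB4 were lower. HOXB7 (chr17:48607227-48633572), a trunk-level gene, had 352, 289 and 368 normalized counts in KD and 159.9 in WT, 2.10-fold higher, with a log2 difference of 1.06 (SE 0.20, adjusted p = 0.00400). HOXB3 (chr17:48548870-48604912), which acts in the hindbrain and pharyngeal arches, had 779, 894 and 897 in KD and 2029 in WT. It was 2.37-fold lower, with a log2 difference of -1.25 (SE 0.13, adjusted p = 0.000294). No KD library came near the WT value of either gene. HOXB4 (chr17:48575513-48580111), known for its role in blood stem cells, had 674, 712 and 708 in KD and 906 in WT (log2 difference -0.38, SE 0.11, adjusted p = 0.0255). That call was lost without KD 1 (adjusted p = 0.0808), with TMM and median-of-ratios scaling, in edgeR and DESeq2, and with thinned reads.

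HOXB2, a hindbrain gene and the highest of the cluster per kilobase of exon, had 1505, 1804 and 1867 normalized counts in KD and 1333 in WT. It was not called (0.37, SE 0.14, adjusted p = 0.0585), but was called higher without KD 1 (adjusted p = 0.0232) and by edgeR and DESeq2, while equal totals gave -0.20. HOXB3 to HOXB2 was 0.518, 0.495 and 0.481 within the KD libraries and 1.52 in WT, in counts not corrected for length. Per kilobase of exon HOXB3 was below HOXB2 in both groups, at 115 against 738 in KD and 272 against 571 in WT. HOXB3 to HOXB4 was 1.16, 1.26 and 1.27 in KD and 2.24 in WT.

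The genes between HOXB4 and HOXB13, apart from HOXB7, were near the floor. HOXB6 had 0, 5.44 and 13.3 normalized counts in KD and 22.2 in WT (-2.36, SE 1.43, adjusted p = 0.180). HOXB9 had 10 reads in KD and 24 in WT, or 11.6% of the WT level (exact 95% interval 4.94 to 25.1%, and 3.19 to 35.3% counted as pairs). HOXB9 to HOXB7 was 0.0108, 0.0108 and 0.00604 in KD and 0.167 in WT. HOXB5 had 18 reads in KD and 8 in WT, 62.5% of the WT level with an interval of 25.9 to 166%, and HOXB8 had 2 and 4 reads. HOXB1, the hindbrain gene at the front end of the cluster, had no read in any library. HOXB13, a prostate and hindgut gene that lies apart from the rest, had 51.2, 48.2 and 57.8 in KD and 65.5 in WT (-0.32, SE 0.34, adjusted p = 0.423).

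In the HOXA cluster (chr7:27092993-27200106, minus strand) all 11 genes were expressed and tested, and 3 were higher and 1 lower in KD. HOXA5 (chr7:27141052-27143668), which is needed for lung development in mice, had 2252, 2087 and 2232 normalized counts in KD and 1179.6 in WT. It was 1.86-fold higher, with a log2 difference of 0.89 (SE 0.10, adjusted p = 0.000457). HOXA9 (chr7:27162435-27175180), the Müllerian gene of the oviduct and a regulator of blood progenitors, had 1307, 1240.2 and 1251 in KD and 864 in WT (log2 difference 0.55, SE 0.10, adjusted p = 0.00401). Every KD library was above WT for both, but HOXA9 gave -0.012 with equal library totals. HOXA13 (chr7:27193503-27200106), the gene of the lower genital tract and digits, had 57.8, 56.7 and 62.3 in KD and 28.9 in WT (log2 difference 1.00, SE 0.35, adjusted p = 0.0403). Leaving out KD 1, KD 2 or KD 3 each ended that call (adjusted p = 0.103, 0.0776 and 0.0826), as did equal totals, DESeq2 and thinned reads. HOXA2 (chr7:27100354-27102811), a selector gene of the pharyngeal arches, had 434, 462 and 440.2 in KD and 662 in WT (log2 difference -0.57, SE 0.13, adjusted p = 0.00889). It lost its call with median-of-ratios scaling (adjusted p = 0.0818) and in DESeq2 (0.109).

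Of the HOXA genes that were not called, HOXA3 and HOXA10 were nearest to no difference. HOXA3, needed for the thymus and parathyroid in mice, had 2138, 2313 and 2275 normalized counts in KD and 2264 in WT (log2 difference -0.015, SE 0.10, adjusted p = 0.902), and HOXA10, the uterine gene, had 215, 211 and 221 in KD and 214 in WT (0.0084, SE 0.18, adjusted p = 0.969). Both directions turned with the scaling, and HOXA3 was called lower with equal totals (-0.58) and higher with median-of-ratios factors (0.26). HOXA7 had 97.6, 113 and 109 in KD and 67.8 in WT (0.64, SE 0.27, adjusted p = 0.0710), and 62.5% of its exonic bases lie opposite exons of HOXA-AS3. HOXA11, the gene of the lower uterus, had 75.8, 62.2 and 55.6 in KD and 33.3 in WT (0.92, SE 0.36, adjusted p = 0.0592). HOXA4 had 82.5, 106 and 85.6 in KD and 149.9 in WT (-0.72, SE 0.28, adjusted p = 0.0587), and HOXA6 had 54.0, 74.6 and 72.3 in KD and 97.7 in WT (-0.55, SE 0.33, adjusted p = 0.179). For each of the last 4 genes the KD libraries lay on one side of WT without reaching the threshold.

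Within HOXA, the proportions of the genes differed as well. HOXA5 made up 48.4, 45.3 and 47.4% of the summed HOXA level per kb in KD and 33.0% in WT. HOXA2 made up 6.48, 6.97 and 6.49% in KD and 12.9% in WT. HOXA2 to HOXA5 was 0.193, 0.222 and 0.197 in KD and 0.561 in WT, and HOXA9 to HOXA10 was 6.07, 5.89 and 5.65 in KD and 4.03 in WT. None of these ratios overlapped between KD and WT. Against 1 WT library such separation is common, as 92.3% of all genes tested had all 3 KD libraries on one side of WT.

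**Figure D4:**
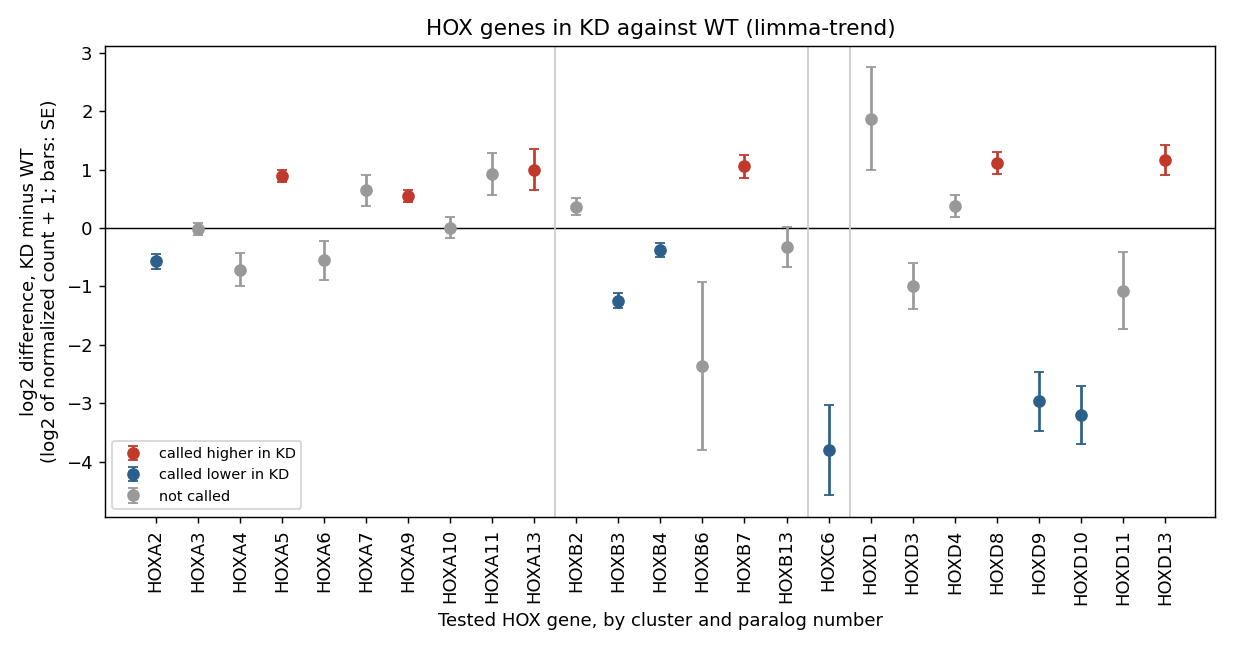
Log2 difference, KD minus WT, of tested HOX genes with its standard error (bars), ordered by cluster and paralog number, with genes called higher in KD in red, called lower in blue and not called in grey. HOXC6 was lowest at -3.80 and HOXD1, not called, was highest at 1.87.

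Added up by cluster, HOXA reached 2725, 2698 and 2759 normalized counts per kb in KD and 2093 in WT. HOXB reached 1175, 1294 and 1374 in KD and 1233 in WT, and HOXD 374, 385 and 414 in KD and 441 in WT. As shares of the HOX total, which need no library factor, HOXA held 63.6, 61.6 and 60.6% in KD and 54.5% in WT, HOXB 27.4, 29.5 and 30.2% in KD and 32.1% in WT, and HOXD 8.73, 8.80 and 9.10% in KD and 11.5% in WT. The HOXA share was thus above WT in each KD library, and the shares of the other clusters were below it. Log2 ratios of the sums, KD over WT, were 0.38 for HOXA, 0.05 for HOXB, -3.56 for HOXC and -0.17 for HOXD, with HOXA at -0.18 under equal library totals. Without KD 1 the HOXC value was -4.10.

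Added up by paralog number over the clusters, group 7 had the highest log2 ratio of KD over WT and group 12 the lowest. Group 7 summed to 271, 236 and 286 normalized counts per kb in KD and 133 in WT (0.99), and group 5, which is nearly all HOXA5, to 1320.3, 1229 and 1309 in KD and 695 in WT (0.89). Groups 8 and 13 had ratios of 0.77 and 0.72. Group 10 summed to 72.5, 75.9 and 67.9 in KD and 192 in WT (-1.42) and group 6 to 44.2, 61.0 and 62.0 in KD and 103 in WT (-0.89). Group 12, of HOXC12 and HOXD12 alone, summed to 2.82, 4.62 and 0 in KD and 13.6 in WT (-2.45). Its ratio was -1.87 without KD 3 and -3.27 without KD 2. Groups 2, 3, 4, 9 and 11 had ratios of 0.13, -0.35, -0.21, 0.28 and 0.00, and under equal totals group 9 turned to -0.28. In group 9, HOXA9 was called higher and HOXD9 lower in KD. In group 6, the KD means of HOXA6, HOXB6 and HOXC6 were all below WT, though HOXC6 alone was called.

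Of 26 listed antisense RNAs, long noncoding RNAs and microRNA genes, 24 had a row and 9 were tested, with 1 higher, 5 lower and 3 not called. Among all tested genes other than protein-coding ones, 7.82% were higher and 55.1% lower, so the direction of these calls is near that background. HOXA-AS2, transcribed against HOXA3, had 395, 380.0 and 330.2 normalized counts in KD and 1497 in WT (log2 difference -2.02, SE 0.15, adjusted p = 0.000105). HOXA-AS3 had 152, 145 and 148 in KD and 456 in WT (-1.62, SE 0.19, adjusted p = 0.000513). HOXB-AS2 had 13.3, 24.1 and 12.2 in KD and 139.9 in WT (-3.07, SE 0.54, adjusted p = 0.00305). HOTAIRM1, a retinoic acid-induced RNA of the HOXA cluster, had 50.2, 66.1 and 81.2 in KD and 157 in WT (-1.26, SE 0.36, adjusted p = 0.0193). HOXA10-AS had 13.3, 29.5 and 27.8 in KD and 78.9 in WT (-1.78, SE 0.57, adjusted p = 0.0309). Every KD library was below WT for these 5. Without KD 2 the calls of HOTAIRM1 and HOXA10-AS were lost (adjusted p = 0.0531 and 0.0503), and DESeq2 did not call them either.

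HAGLROS, in the HOXD cluster, had 109, 161 and 140.1 normalized counts in KD and 75.5 in WT (0.83, SE 0.30, adjusted p = 0.045) and was the only noncoding gene called higher. The call was lost without KD 2 (adjusted p = 0.109), without KD 3 (0.0990), with equal totals, with thinned reads and without the filter. HAGLR, from the other strand of the HOXD cluster, had 1312, 1314 and 1445 in KD and 1405 in WT (-0.052, SE 0.11, adjusted p = 0.689). HOXD-AS2 had 37.9, 33.4 and 42.2 in KD and 42.2 in WT (-0.16, SE 0.40, adjusted p = 0.732), and HOXB-AS1 had 88.1, 124 and 137 in KD and 202 in WT (-0.82, SE 0.31, adjusted p = 0.0519). HOXB-AS1 was called lower under 5 of 13 alternatives, among them edgeR, equal totals and leaving out KD 3. The strand setting of the counting is not given, so reads of an antisense gene and its coding partner may not have been kept apart. ENSG00000257178, an unnamed gene on the HOXB strand (chr17:48579630-48582259) that overlaps HOXB4 and was singled out after its values were seen, had 27.5, 32.6 and 24.5 in KD and 149 in WT, 5.28-fold lower (log2 difference -2.37, SE 0.39, adjusted p = 0.00229).

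**Figure D5:**
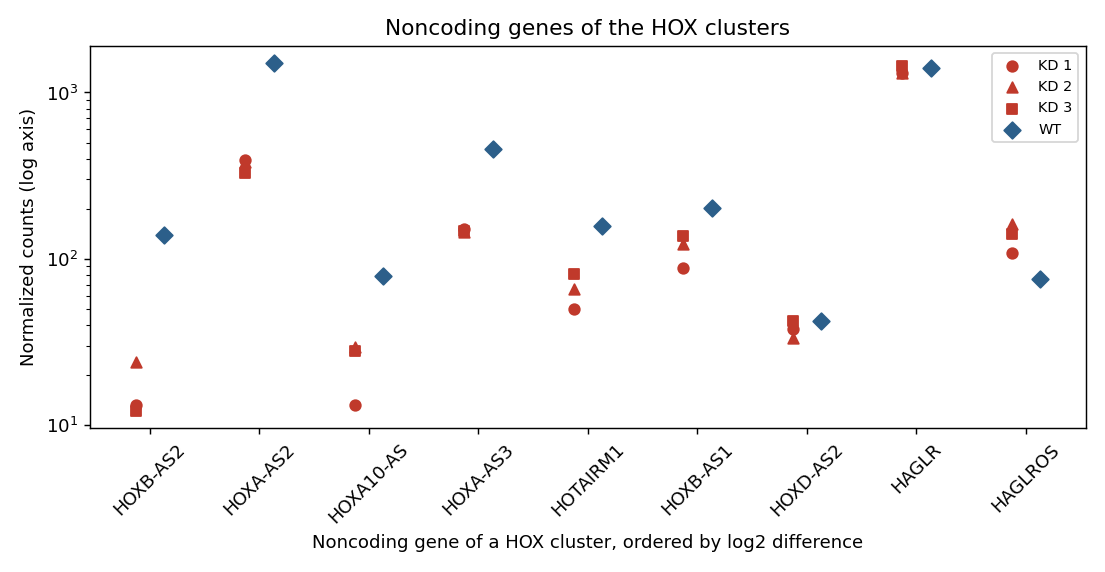
Normalized counts, on a log axis, of the 9 tested noncoding genes of the HOX clusters in each library, with KD in red on the left of each pair and WT in blue on the right, ordered by log2 difference. HOXA-AS2 had 330.2 to 395 in KD and 1497 in WT, and HAGLR ran from 1312 to 1445 in KD around 1405 in WT.

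Other noncoding genes had few reads. HOTAIR, a long noncoding RNA of the HOXC cluster, had 0 reads in KD and 4 in WT, and HOTTIP, beside HOXA13, had 16 in KD and 0 in WT. Reads on a microRNA gene in these libraries can come from longer transcripts, since small RNAs were not selected. MIR10B, beside HOXD4, had 1 read in KD and 6 in WT, and MIR615, in the HOXC cluster, had 0 and 2. MIR10A, MIR196A1, MIR196A2 and MIR196B had no read in any library. Mature sequences of MIR10B and MIR615 are shown because these genes had reads, with the seed, bases 2 to 8, in capitals (RefSeq, GRCh38.p14, plus strand, at chr2:176150368-176150389, chr12:54033967-54033988 and chr12:54034010-54034031).
hsa-miR-10b-3p: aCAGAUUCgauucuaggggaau
hsa-miR-615-5p: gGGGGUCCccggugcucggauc
hsa-miR-615-3p: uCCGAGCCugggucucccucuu
The 3 seeds shown differ from one another. MIR10B is represented by its 3p arm alone, and its 5p arm is not shown.

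The cofactors that bind DNA together with HOX proteins, the PBX, MEIS and PKNOX genes, were mixed. Of 9 listed, 8 were tested, with 1 higher, 3 lower and 4 not called, and a median log2 difference of -0.14. Over protein-coding genes, 45.9% were higher and 24.7% lower, with a median of 0.28. MEIS1 had 4820, 5100.0 and 4843 normalized counts in KD and 8948 in WT (log2 difference -0.86, SE 0.10, adjusted p = 0.000429). PBX4 had 76.8, 66.1 and 50.03 in KD and 149.9 in WT (-1.23, SE 0.35, adjusted p = 0.0192). PBX2 had 1139, 1132 and 1205 in KD and 723 in WT (0.68, SE 0.11, adjusted p = 0.00193), a rise that shrank to 0.12 with equal totals. PKNOX2 had 0 reads in KD and 25 in WT.

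Among chromatin regulators that keep HOX genes on or off, the trithorax group was split. Of 15 trithorax genes, 5 were higher, 6 lower and 4 not called, with a median of 0.01, against 45.9% higher, 24.7% lower and a median of 0.28 over protein-coding genes. The 5 were DPY30, WDR5, ASH2L, RBBP5 and PSIP1, and the 6 were the methyltransferase genes KMT2A, KMT2B, KMT2C, KMT2D, SETD1B and ASH1L. DPY30, a core subunit of the KMT2 histone methyltransferases, had 2270.0, 1902 and 2197 normalized counts in KD and 504 in WT (log2 difference 2.07), and WDR5, which holds the same core together, had 2615, 2635 and 2924 in KD and 1146 in WT (1.25). KMT2C, one of the methyltransferases, had 12815, 14937 and 13239 in KD and 32156 in WT (-1.24). Of 20 Polycomb genes, whose products silence HOX genes, 11 were higher, 4 lower and 5 not called, with a median of 0.44, near the shares of protein-coding genes. BMI1 had 2325, 1922 and 2269 in KD and 532 in WT (2.02), RNF2, the ubiquitin ligase of the same complex, 5036, 4366 and 4975 in KD and 1278 in WT (1.90), and RBBP7 8637, 7957 and 9418 in KD and 2508 in WT (1.79). Adjusted p-values of these 6 genes lay between 6.96e-05 and 0.000344. With equal totals, 7 Polycomb genes were higher and 9 lower.

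Retinoic acid activates HOX genes from the front end of the clusters. Of 17 genes of retinoic acid supply and reception and of the CDX family, 12 were tested, with 4 higher, 5 lower and 3 not called and a median of -0.072, against the same protein-coding shares of 45.9% and 24.7%. CRABP2, a retinoic acid carrier protein, had 7543, 8837 and 8700.3 normalized counts in KD and 1082 in WT (log2 difference 2.95, SE 0.12, adjusted p = 6.57e-05). ALDH1A3, an enzyme that makes retinoic acid, had 66.3, 62.9 and 81.2 in KD and 412 in WT (-2.55, SE 0.27, adjusted p = 0.000372). CYP26A1, which breaks it down, had 47.4, 13.99 and 8.89 in KD and 2.22 in WT (2.58, SE 0.95, adjusted p = 0.0490), with only 2 reads in WT, so it passed the filter through KD alone. CDX1 and CDX4 had no read in any library and CDX2 had 2 reads in KD and 0 in WT.

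The non-HOX genes beside the clusters were mostly higher in KD, with 12 higher, 1 lower and 1 not called of 14 tested and a median log2 difference of 1.12. Among protein-coding genes as a whole, 45.9% were higher, with a median of 0.28. ATP5MC1, a subunit gene of the mitochondrial ATP synthase near HOXB, had 3641, 3383 and 3563 normalized counts in KD and 989 in WT (1.83), and its paralog ATP5MC2 near HOXC had 7959, 7415 and 7824 in KD and 2715 in WT (1.51). CALCOCO1, near HOXC, had 807, 946 and 1078 in KD and 2844 in WT (-1.60). Beside the HOXC cluster, genes called higher and lower thus both occurred. With equal totals, 9 flanking genes were higher and 2 lower.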

How the data were processed

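The authors deposited normalized read counts (signal values) per gene for 4 total RNA libraries. Ribosomal RNA had been removed and the cDNA strands marked with dUTP, per the labels' protocols. The tools named in the submitters' processing notes are featureCounts 2.0.6, STAR 2.7.11b and DESeq2, with hg38. The sources used here do not give their order, the annotation release or the strand setting. All deposited values were whole reads divided by 1 factor per library (100.0% whole within 0.001 reads), with factors of 1.0551, 1.2869 and 0.8995 for KD 1, 2 and 3 and 0.9003 for WT. Of values of 2 to 20 reads, 80.3 to 81.9% were even in KD and 74.7% in WT. Intervals and floors cover counting error only.

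Differences were tested in R 4.3.3 with limma-trend (limma 3.58.1), two-sided, on log2(normalized count + 1), for genes with a mean of at least 10, which understates changes of low genes. Alternatives were DESeq2 1.42.0 and edgeR 4.0.16 (quasi-likelihood), run on recovered reads, beside other pseudocounts, filters, scalings, thinning of KD reads to the WT total and leaving out each KD library. The count test in edgeR called 70.6% of the 23344 genes. Scripts were tested on simulated data. Exonic lengths, positions and overlaps came from GENCODE 29 on GRCh38, which held all 39 HOX genes and 92.9% of all identifiers. HOX genes are named with their values except for results that are not reported here. From other lists, the 3 called genes with the largest absolute differences are named, and all tested noncoding genes of the clusters. The members and lists were chosen with earlier results of these data known. Protein sequences were not used here.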

Additional observations from a re-analysis of the deposited data

How the results depend on the processing

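No paired analysis was possible because KD and WT share fewer than 2 replicate numbers. Leaving out each KD library in turn gave 5 to 7 HOX genes called higher and 5 to 6 lower. Among noncoding genes of the clusters it gave 0 to 1 higher and 3 to 6 lower, and among cofactors, chromatin regulators, upstream signals and flanking genes 36 to 39 higher and 16 to 18 lower. The deposited scaling gave 40 and 19 in that last group, equal library totals gave 26 higher and 38 lower, and median-of-ratios scaling gave 12 lower. HOX genes called higher numbered 3 with equal totals, 10 with TMM and 12 with median-of-ratios scaling, and those called lower 11 with equal totals and 10 with no filter on low values. Among noncoding genes, none (0) was called higher with equal totals or thinned reads, and 3 were called lower by DESeq2. edgeR called 8 HOX genes higher and 6 lower, and DESeq2 6 and 4.

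Directions turned for some genes. With equal totals the log2 differences were -0.012 for HOXA9, -0.55 for HOXA10, -0.20 for HOXB2 and -0.18 for HOXD4. HOXA3 was 0.087 with TMM, 0.26 with median-of-ratios scaling, 0.088 in edgeR, 0.17 in DESeq2 and 0.0075 with thinned reads. When each KD library was left out, HOXA3 ran from -0.038 to 0.019 and HOXA10 from -0.010 to 0.025. HAGLR was 0.0497 with TMM, 0.0499 in edgeR, 0.23 with median-of-ratios scaling and 0.13 in DESeq2, and HOXD-AS2 was 0.11 with median-of-ratios scaling and 0.022 in DESeq2.

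Summed levels, as log2 ratios of KD over WT, were lower with equal totals by construction: HOXA -0.18, HOXB -0.51, HOXD -0.74, and for paralog numbers 2 to 13 in order -0.43, -0.91, -0.77, 0.32, -1.45, 0.43, 0.21, -0.28, -1.98, -0.56, -2.97 and 0.15. Without the length correction they were 0.29 for HOXA, -0.31 for HOXB, -0.28 for HOXD, -0.48 for number 3, -0.31 for 4, -1.27 for 6, 0.37 for 9, -1.18 for 10 and -2.74 for 12. Without genes that share over 50% of exonic bases on the same strand, HOXD was -0.43 and number 4 was -0.51. Number 12 ran from -3.27 to -1.87 when each KD library was left out. The cause of these changes was not tested beyond the construction of each setting. Depth limits the HOXC genes and HOXB5, HOXB8, HOXB9 and HOXD12, where single reads decide the values, and the lone WT library limits every comparison.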

Other observations

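CTCF and cohesin, which fold chromosomes into loops and set boundaries within HOX clusters, were mostly higher in KD. Of 8 listed genes, 7 were higher, 0 lower and 1 not called in limma, with a median log2 difference of 0.72, against 45.9% higher, 24.7% lower and a median of 0.28 over protein-coding genes. STAG2 had 21285, 17522 and 19799.7 normalized counts in KD and 6165 in WT (log2 difference 1.66), RAD21, the cohesin ring subunit, had 19052, 18062 and 19973 in KD and 6459 in WT (1.56), and SMC3 had 7757, 6988 and 6620.3 in KD and 2683 in WT (1.41). CTCF itself had 5072, 4908 and 5688 in KD and 3199 in WT (0.70). With equal library totals, 3 of the 8 were higher and 3 lower, so most of these calls depend on the scaling.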
